A study of Mus musculus with 18 samples.

Results

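A set of 8 genes of primordial germ cell specification and identity were followed by name, Prdm1, Prdm14, Tfap2c, Dppa2, Dppa3, Dppa4, Dppa5a and Kit, which are 8 of the 21883 coding genes in the RefSeq gene table. They were measured in mouse prospermatogonia, the fetal male germ cells, sorted at E17.5, late in gestation, by an Oct4-GFP reporter and stored frozen before use. Trimethylation of lysine 4 of histone H3 (H3K4me3) was mapped by CUT&RUN, in which an antibody tethers a nuclease to chromatin and the cut fragments are sequenced, from 4000 nuclei per library. Groups of 3 biological replicates were homozygous for a Tet1 null allele (Tet1-/-, KO), homozygous for the Tet1HxD allele (Tet1HxD/HxD, HxD) or wild type (Tet1+/+, WT). HxD is known as an allele whose protein lacks catalytic activity. All 3 groups carried the reporter, the same antibody and the same batch label. The sources used here do not say how the alleles were made or how many animals stand behind a library.

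Primordial germ cells are set aside in the early embryo, when BMP and WNT signals induce the transcription factors PRDM1, PRDM14 and TFAP2C. These regulators repress the somatic programme, restore expression of pluripotency genes and accompany genome-wide loss of DNA methylation. Prospermatogonia descend from these cells. H3K4me3 marks promoters that are active or poised and is usually low where CpG-rich DNA is methylated, and TET1 oxidises 5-methylcytosine.

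Each gene was measured at its marked end, the end of the RefSeq gene with more peak coverage within 1 kb over all 9 libraries. Breadth is the number of bp covered by called peaks within 5 kb on either side of that end, so it can reach 10001 bp, and it is a length, not a signal height. All 8 genes had a peak within 1 kb of the marked end in at least 3 libraries and so entered the test, which covered 15996 genes. Of the members, 7 had such a peak in all 9 libraries, as did 81.5% of the genes tested, and the exception was Dppa2. No end of another gene lay within 5 kb of any member's marked end. Each library pools nuclei, so a domain that is narrower in every nucleus and one that is missing from a share of nuclei cannot be told apart.

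The peak lists differed in length between genotypes: they held 69901 to 80232 peaks in KO, 49624 to 67925 in HxD and 83586 to 128701 in WT. Peaks covered 50.5 to 73.0 Mb in KO, 45.6 to 69.3 Mb in HxD and 76.6 to 108.9 Mb in WT. The mean breadth over the genes tested overlapped between groups, at 1680 to 2382 bp in KO, 1744 to 2189 bp in HxD and 1896 to 2334 bp in WT. Read depth is unknown from these lists. Tet1 itself had a breadth of 2732, 3331 and 4851 bp in KO, 3495, 3260 and 2580 bp in HxD, and 2570, 2415 and 3315 bp in WT. The deleted part of the gene is not known here, so a mark at the Tet1 end does not check the labels. Of 8 germ cell markers, 5 (Ddx4, Dazl, Dnd1, Pou5f1 and Tdrd1) were marked in all 9 libraries, and their summed breadth over the 8 was 16126 to 24452 bp in KO, 11848 to 19869 bp in HxD and 12323 to 15692 bp in WT. Sertoli cell markers were also marked, 5 of 8 in all 9 libraries, with sums of 16764 to 23141 bp in KO, 13910 to 21705 bp in HxD and 22537 to 26361 bp in WT. Cst9 was the Sertoli gene with no peak. Leydig or interstitial markers summed to 9706 to 18223 bp in KO, 13031 to 17794 bp in HxD and 16455 to 24540 bp in WT, with 2 of 8 marked in all 9 libraries and Cyp17a1, Star and Hsd3b1 in none. Endothelial or blood markers summed to 4949 to 9175 bp in KO, 6994 to 8585 bp in HxD and 7686 to 12323 bp in WT, with 4 of 8 marked in all 9 libraries and Ptprc and Gata1 in none. A promoter can carry H3K4me3 without transcription, so these markers do not measure cell shares, and the part of other cells or of list length in the values below was not tested.

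The 8 genes fell into a broad and a narrow group. Tfap2c, Prdm14, Prdm1, Kit and Dppa3 carried wide domains, and Dppa4, Dppa5a and Dppa2 carried short ones. Among the genes tested, the median percentile of breadth over the 9 libraries was 98.4 for Tfap2c, 95.5 for Prdm14, 92.1 for Prdm1, 90.0 for Dppa3 and 88.9 for Kit. It was 33.0 for Dppa4, 18.2 for Dppa2 and 14.2 for Dppa5a. In KO libraries the order of mean breadth was Tfap2c, Prdm14, Dppa3, Kit, Prdm1, Dppa4, Dppa5a and Dppa2, and the only neighbours whose libraries did not overlap were Prdm1 and Dppa4. In HxD libraries the order was Tfap2c, Prdm14, Prdm1, Kit, Dppa3, Dppa4, Dppa2 and Dppa5a, and every pair of neighbours overlapped. In WT libraries the order was Tfap2c, Prdm1, Kit, Prdm14, Dppa3, Dppa4, Dppa5a and Dppa2. There Tfap2c stood apart from Prdm1, and Dppa3, Dppa4, Dppa5a and Dppa2 each stood apart from the next.

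**Figure D1:**
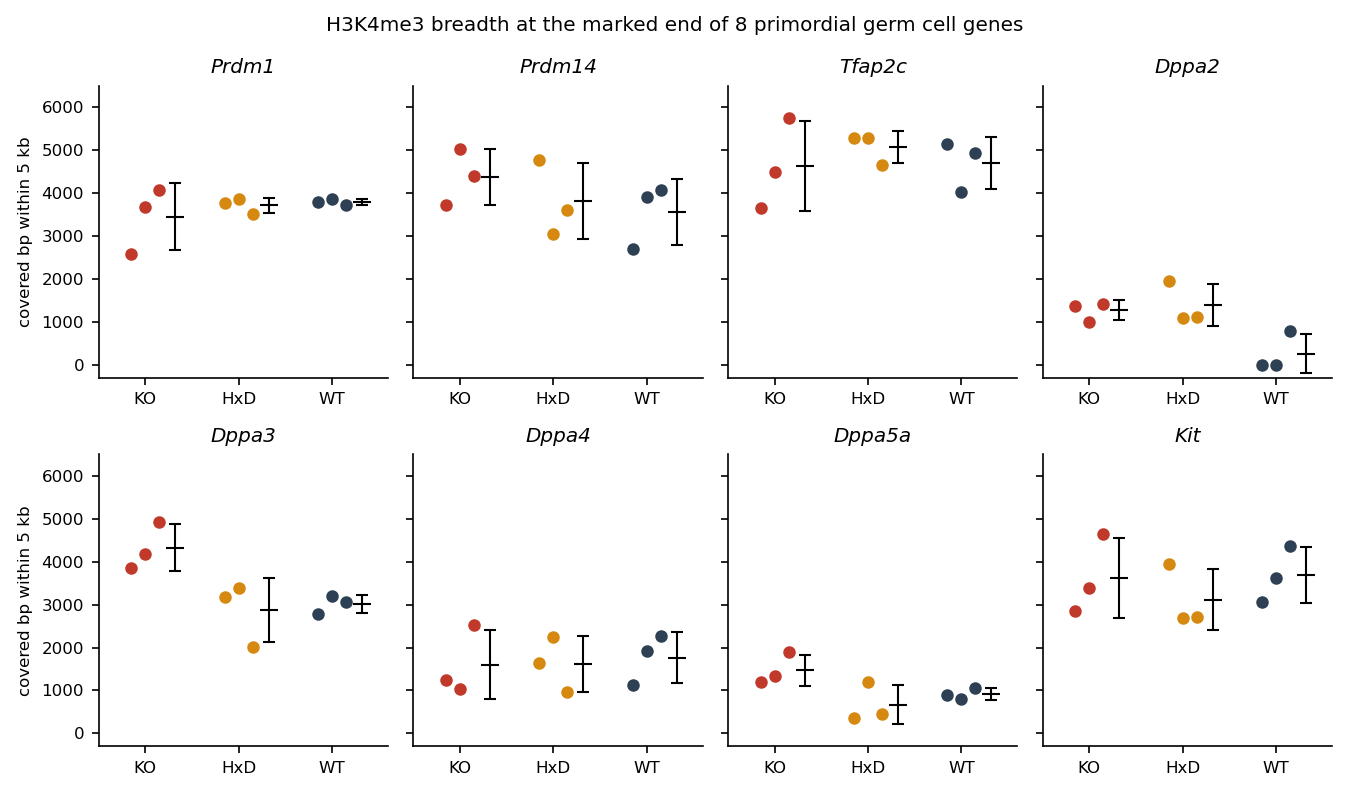
H3K4me3 breadth in bp within 5 kb of the marked end for each of the 8 genes, 1 point per library in KO, HxD and WT with the group mean and SD. Dppa2 lies at 0 in 2 WT libraries and between 1003 and 1966 bp in the 6 mutant libraries, and the KO points of Dppa3 lie above all others.

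The question put to each gene was whether its domain differed with loss of TET1 or with the HxD allele. No member passed the test in any of the 3 comparisons (limma across all genes tested, Benjamini-Hochberg adjusted p under 0.05). Of all genes tested, 0% were called broader and 0.00625% narrower in KO against WT, and 0% either way in the HxD against WT and KO against HxD comparisons. With all lists cut to the length of the shortest, 363 genes were called broader and 36 narrower in KO against WT, and with each library centred on its own mean 183 and 281, with no member among them. A known change was given to 200 of the 15996 genes in simulated KO and WT libraries. The same test recovered 0% of changes of 500 bp and of 1000 bp and 65.5% of changes of 2000 bp. At 2000 bp it also called 7 unchanged genes. The simulated spread was drawn separately for each gene and library, without the differences in mean breadth between the real libraries, so recovery in the real libraries can differ. The changed genes were drawn only from genes with broad domains. These shares therefore do not apply to the narrow domains of Dppa2, Dppa4 and Dppa5a. With the lists as deposited, all differences at the 8 genes were smaller than 2000 bp.

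In KO against WT, 4 members had a broader mean and 4 a narrower one, while 53.3% of all genes tested had a broader mean. Their median difference was 246 bp, beside 45.0 bp over all genes tested. Dppa2 and Dppa3 were broader at an unadjusted p under 0.05, a level that 6.76% of all genes tested reached in that direction and no member reached in the other (7.45% of all genes). For Dppa2, Dppa3 and Dppa5a every KO library was broader than every WT library, which held for 8.49% of all genes tested. No member was narrower in every KO library than in every WT library (9.08% of all genes). In HxD against WT, 3 members had a broader mean, beside 38.9% of all genes, and 5 a narrower one, with a median of −110 bp beside −125 bp over all genes. Dppa2 was the member past an unadjusted p of 0.05 (1.74% of all genes in that direction), and the member with no overlap between groups (3.62% of all genes). No member was narrower at an unadjusted p under 0.05 (9.04% of all genes) or in every HxD library against every WT library (13.3% of all genes). Both comparisons use the same 3 WT libraries. Dppa2 was marked in 1 of these and entered the test only through its mutant libraries, so its counts as broader are not independent of the filter. In KO against HxD, 4 members had a broader mean, beside 71.5% of all genes, and 4 a narrower one, with a median of 244 bp beside 167 bp over all genes. Dppa3 and Dppa5a were broader in KO at an unadjusted p under 0.05 (2.69% of all genes) and had no overlap between groups (7.19% of all genes). No member was narrower in KO by either measure (0.219% and 0.706% of all genes).

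**Figure D2:**
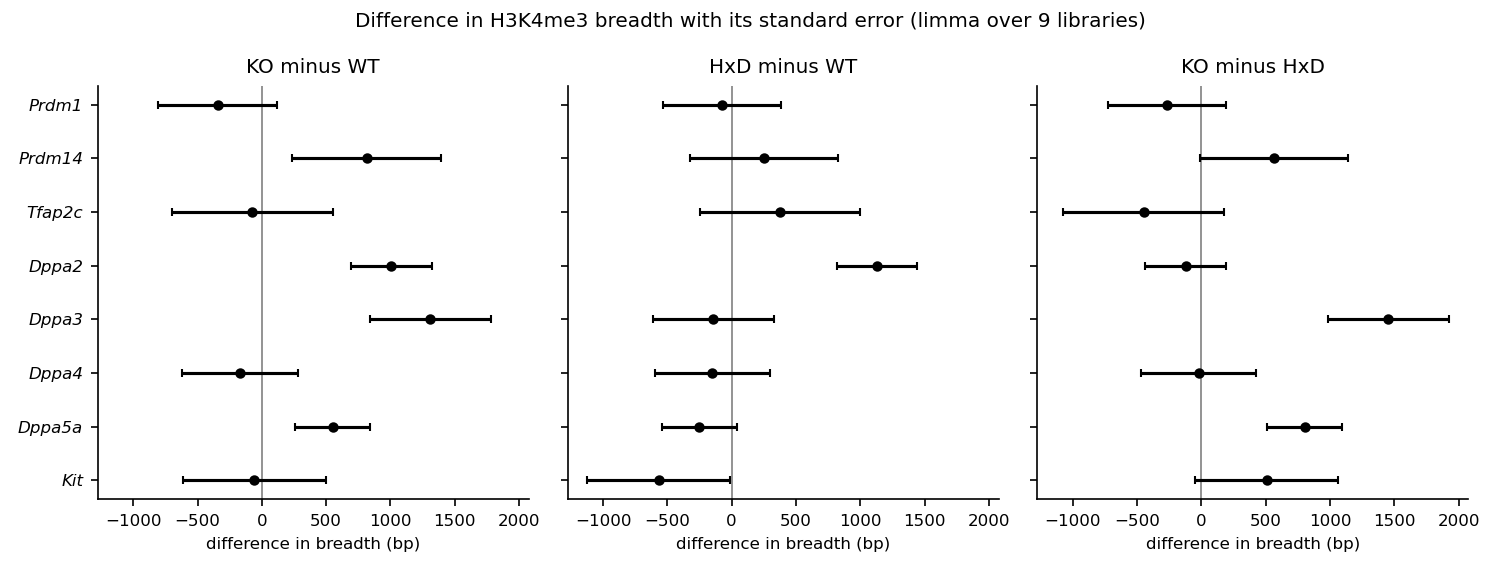
Difference in mean breadth in bp with its standard error from limma for each gene, in KO minus WT, HxD minus WT and KO minus HxD. Dppa2 is positive in both comparisons with WT, and Dppa3 is positive against both WT and HxD in KO.

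Prdm1 encodes BLIMP1, the zinc finger repressor that silences somatic genes at specification. RefSeq places the gene at chr10:44437174-44528558 (mm10), and its marked end was the upper coordinate. Its breadth was 2585, 3691 and 4081 bp in KO, 3774, 3863 and 3526 bp in HxD, and 3804, 3870 and 3718 bp in WT. The WT libraries lay close together, and KO replicate 1 was the narrowest of the 9, while KO replicate 3 was the widest. The means were 3452 ± 776 bp in KO, 3721 ± 175 bp in HxD and 3797 ± 76.2 bp in WT (SD, n = 3 each). The adjusted p from limma was 0.768 for KO minus WT (−345 ± 460.4 bp, SE) and 0.972 for HxD minus WT (−76.3 bp).

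RefSeq promoter stretches of 300 bases were found for 2 of the 8 members, Prdm1 and Kit, both among the broad domains. They are shown because CpG content is the sequence feature that H3K4me3 domains are known for, with each CG in capitals, 5′ to 3′ on the strand of the gene, from the RefSeq table of GRCm38.p6. Prdm1 lies on the minus strand at chr10:44458699-44458998 and Kit on the plus strand at chr5:75574737-75575036.
Prdm1: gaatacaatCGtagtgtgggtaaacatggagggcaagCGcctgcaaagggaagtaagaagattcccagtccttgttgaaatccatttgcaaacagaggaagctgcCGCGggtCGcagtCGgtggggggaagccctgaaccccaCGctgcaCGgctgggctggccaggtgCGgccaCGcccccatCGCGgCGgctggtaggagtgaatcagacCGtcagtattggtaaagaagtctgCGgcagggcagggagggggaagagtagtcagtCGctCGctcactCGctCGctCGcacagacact
Kit: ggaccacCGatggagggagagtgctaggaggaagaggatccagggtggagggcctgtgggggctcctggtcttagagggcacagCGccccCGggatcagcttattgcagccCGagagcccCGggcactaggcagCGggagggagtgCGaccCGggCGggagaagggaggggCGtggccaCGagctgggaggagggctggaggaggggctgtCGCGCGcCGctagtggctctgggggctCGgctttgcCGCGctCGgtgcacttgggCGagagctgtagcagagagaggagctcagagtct
Each stretch shown held 20 CG, a letter pair that reads the same on both strands. This placed both at percentile 73.5 of 32851 promoter stretches of that length, whose median was 7 CG. G and C made up 59.7% of the Prdm1 stretch and 69.0% of the Kit stretch, against a median of 52.7%. The Kit stretch sits at the marked end of Kit and was covered by peaks over all 300 bases in all 9 libraries. A second RefSeq stretch of Kit, not shown, has its start 4 bp further into the gene and held 21 CG (percentile 75.2).

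The Prdm1 stretch does not sit at the marked end. It belongs to a start 69810 bp inside the gene, at position 44458748, so Prdm1 carried 2 broad domains, at the far end of the longest gene model and at this internal start. No other RefSeq promoter stretch was found for Prdm1, so none lay at its marked end. The percentiles, folds and counts given for Prdm1 are those of the marked end. A peak overlapped the stretch in all 9 libraries and covered 166 to 300 of its bases. Breadth within 5 kb of the internal start was 2801, 3494 and 5204 bp in KO, 3878, 3092 and 2894 bp in HxD, and 2931, 3581 and 2904 bp in WT. KO replicate 3 was the widest, and the groups overlapped. The difference there was 694 ± 563 bp for KO minus WT (limma adjusted p 0.601) and 149 bp for HxD minus WT (limma adjusted p 0.956), so the sign in both comparisons was opposite to that at the marked end.

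**Figure D3:**
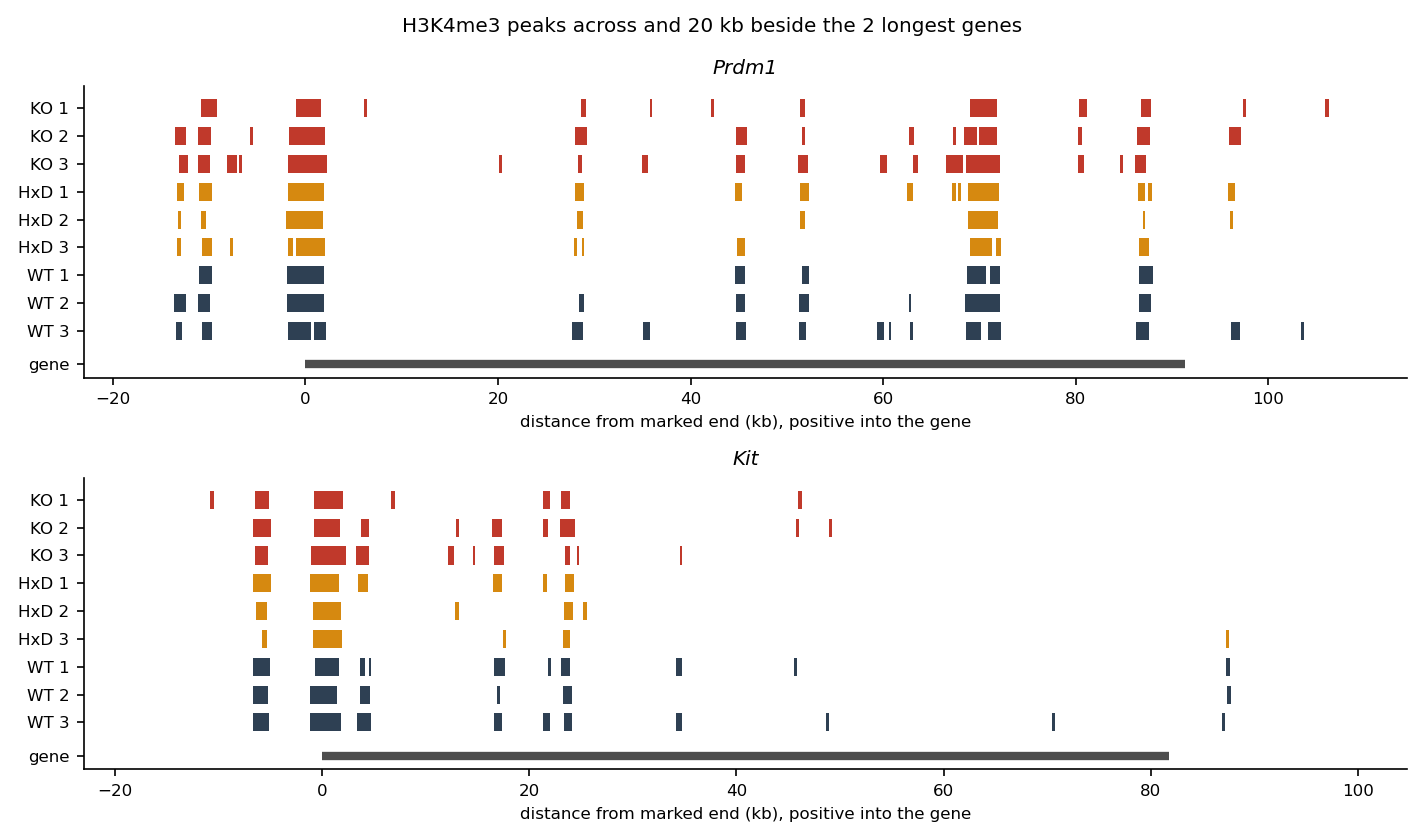
Called peaks along Prdm1 and Kit, as distance in kb from the marked end, 1 row per library in KO, HxD and WT. Prdm1 shows a domain at its marked end and another at its internal start in all 9 libraries.

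Prdm14 (chr1:13113428-13127163) encodes a PR-domain regulator that supports the pluripotency network and represses DNA methylation enzymes. Its breadth was 3723, 5021 and 4400 bp in KO, 4787, 3048 and 3619 bp in HxD, and 2692, 3925 and 4081 bp in WT. The widest domains were in KO replicate 2 and HxD replicate 1, the narrowest in WT replicate 1, and the groups overlapped. Means were 4381 ± 649 bp in KO, 3818 ± 886 bp in HxD and 3566 ± 761 bp in WT (SD, n = 3 each). Limma gave 815 ± 579 bp for KO minus WT (SE, adjusted p 0.544) and 252 bp for HxD minus WT (adjusted p 0.917). KO minus WT was 1291 bp with peaks of −log10 q of at least 5 (limma adjusted p 0.504). It was 1394 bp with lists of equal length (limma adjusted p 0.338).

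Tfap2c (chr2:172545678-172558622) encodes AP-2 gamma, which acts with PRDM1 and PRDM14 at specification. Its breadth was 3658, 4488 and 5756 bp in KO, 5297, 5298 and 4653 bp in HxD, and 5156, 4028 and 4938 bp in WT. It had the widest domain of the 8 on average in every genotype, with KO replicates 1 and 3 at the extremes and overlapping groups. The peaks ran past the window into the gene, and their full length was 4828 to 7260 bp over the 9 libraries. Means were 4634 ± 1057 bp in KO, 5083 ± 372 bp in HxD and 4707 ± 598 bp in WT (SD, n = 3 each). Limma gave −73.3 ± 626 bp for KO minus WT (SE, adjusted p 0.972) and 375 bp for HxD minus WT (adjusted p 0.880).

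Dppa2 (chr16:48310274-48319513) and Dppa4 (chr16:48283735-48294292) are neighbours whose marked ends lie 26539 bp apart. Their SAP-domain proteins form a heterodimer that, in mouse embryonic stem cells, binds CpG-rich promoters and is required for H3K4me3 at a set of developmental promoters. Dppa2 had 1385, 1003 and 1430 bp in KO, 1966, 1101 and 1124 bp in HxD, and 0, 0 and 797 bp in WT. It was the member without a peak in some libraries: WT replicates 1 and 2 had none within 5 kb, and every KO and HxD library was wider than WT replicate 3. Dppa2 entered the test through its mutant libraries, since it was marked in 1 of 3 WT libraries. The WT lists were the longest of the 3 groups. Means were 1273 ± 235 bp in KO, 1397 ± 493 bp in HxD and 266 ± 460.1 bp in WT (SD, n = 3 each).

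The Dppa2 difference was 1007 ± 313 bp for KO minus WT (SE, limma adjusted p 0.182) and 1131 ± 313 bp for HxD minus WT (limma adjusted p 0.220). KO minus HxD was −124 bp (limma adjusted p 1). The peaks were also placed unevenly around the Dppa2 start. In KO they ran from −584 to 374 bp, 220 to 1222 bp and −120 to 1309 bp, with a further peak from 2949 bp in KO replicate 1. In HxD they ran from −320 to 1645 bp, −128 to 972 bp and 622 to 1745 bp. In WT replicate 3 they ran from −1421 to −1158 bp and from 437 to 969 bp. The stretch just inside the gene was thus shared by most of the peaks, while their outer edges differed between libraries. The highest fold was 10.3, 8.43 and 6.41 in KO, 6.68, 7.79 and 6.60 in HxD, and 6.07 in WT replicate 3. Within its own list the fold of KO replicate 1 stood at percentile 43.8 of the genes tested, and that of the other 6 libraries with a peak at percentiles 7.86 to 24.4.

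Dppa4 had 1246, 1028 and 2513 bp in KO, 1636, 2252 and 958 bp in HxD, and 1118, 1915 and 2264 bp in WT. Its libraries spread over the same range in all 3 genotypes, with the widest in KO replicate 3 and the narrowest in HxD replicate 3. Means were 1596 ± 802 bp in KO, 1615 ± 647 bp in HxD and 1766 ± 587 bp in WT (SD, n = 3 each). Limma gave −170 ± 447 bp for KO minus WT (SE, adjusted p 0.900) and −150 bp for HxD minus WT (adjusted p 0.945). The partners of the heterodimer thus had different values: a peak at Dppa4 was present in all 9 libraries and one at Dppa2 in 7. A difference between the 2 genes was not tested.

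**Figure D4:**
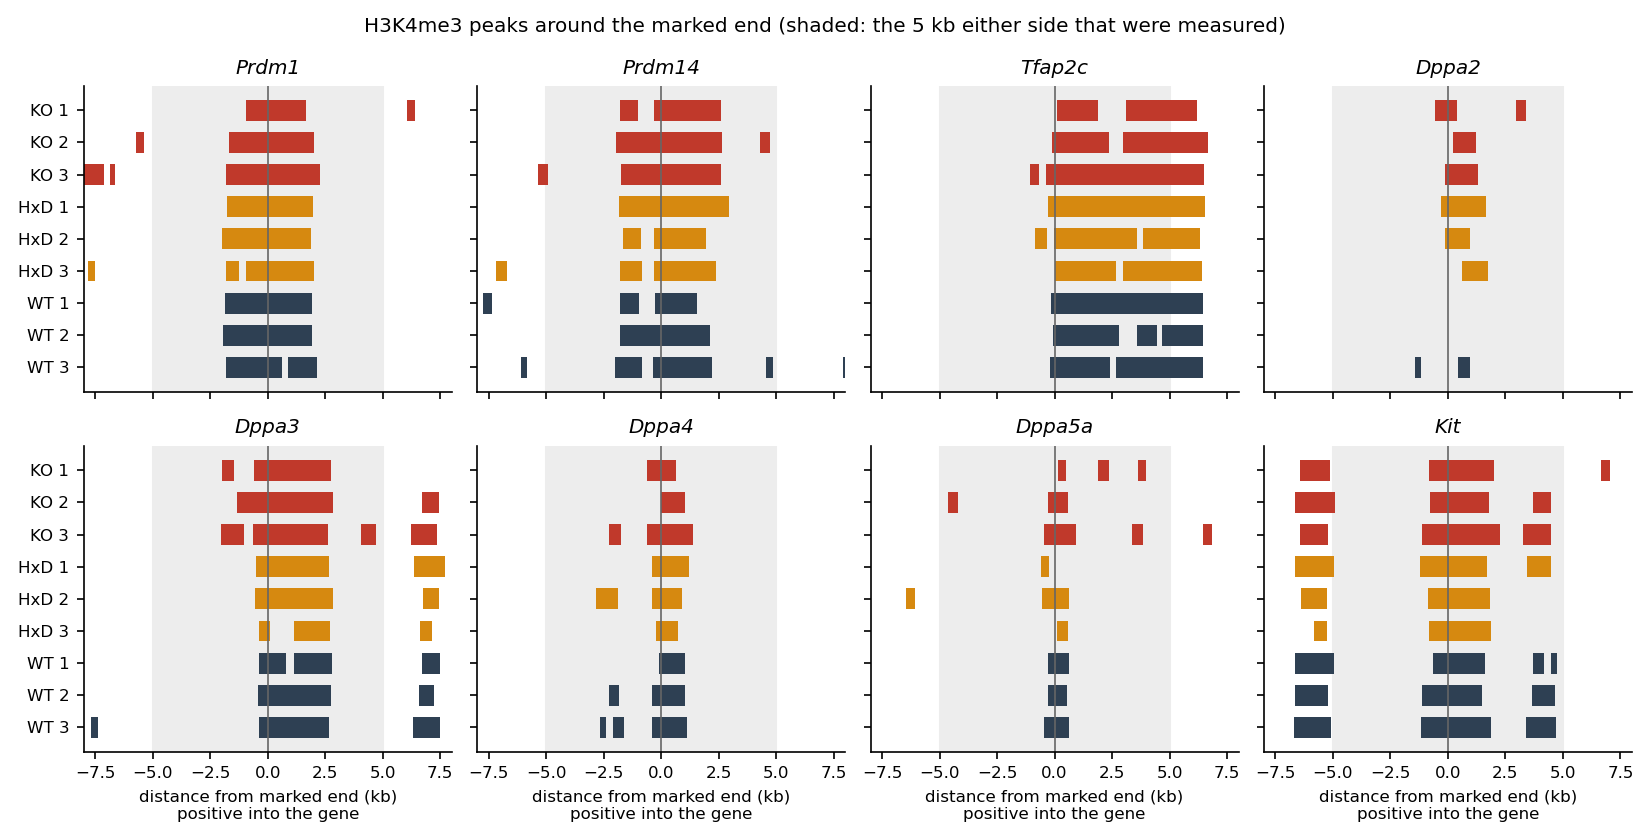
Called peaks around the marked end of each gene, as distance in kb with the measured 5 kb on either side shaded, 1 row per library in KO, HxD and WT. The Dppa2 rows of WT replicates 1 and 2 are empty, and within the shading the outermost KO peaks of Dppa3, separate ones in KO replicates 1 and 3, reach further upstream than those of the other 6 libraries.

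Dppa3 (chr6:122626424-122630271), also called Stella or PGC7, encodes a protein that shields maternal DNA methylation in the zygote and is a classic marker of primordial germ cells. Its breadth was 3852, 4185 and 4924 bp in KO, 3188, 3397 and 2015 bp in HxD, and 2785, 3191 and 3055 bp in WT. All 3 KO libraries were wider than all 6 others, and HxD replicate 3 was the narrowest. Means were 4320 ± 549 bp in KO, 2867 ± 745 bp in HxD and 3010 ± 207 bp in WT (SD, n = 3 each). The difference was 1310 ± 470.4 bp for KO minus WT (SE, limma adjusted p 0.230) and 1454 ± 470.4 bp for KO minus HxD (limma adjusted p 1). HxD minus WT was −144 bp (limma adjusted p 0.950). With lists of equal length, in which WT replicate 3 had no peak at the Dppa3 end, KO minus WT was 2868 bp (limma adjusted p 0.0544, range over the alternatives 0.0544 to 0.498) and HxD minus WT was 1414 bp. The equal lists also lacked the inner peak of WT replicate 1, at 1151 to 2769 bp with a fold of 3.12.

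Part of the KO width lay upstream of the Dppa3 start, a detail chosen after its values were seen. The outermost upstream peak edge within 5 kb was at −2000, −1337 and −2053 bp in KO, at −526, −549 and −380 bp in HxD, and at −379, −422 and −379 bp in WT. In KO replicates 1 and 3 these edges belonged to separate peaks of fold 6.26 and 3.90, and the main domain began at −579 and −632 bp, close to HxD replicates 1 and 2. In KO replicate 2 the domain itself reached −1337 bp. The downstream edge of the main domain was at 2737, 2847 and 2617 bp in KO, 2661, 2847 and 2682 bp in HxD, and 2769, 2768 and 2675 bp in WT. KO replicate 3 had another peak at 4059 to 4703 bp. In HxD replicate 3 and WT replicate 1 the domain was split by a gap inside the gene.

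Dppa5a (chr9:78367052-78368199) encodes a KH-domain RNA-binding protein of pluripotent and germ cells. The gene is short, so both its ends lie in the window. Its breadth was 1189, 1330 and 1885 bp in KO, 358, 1187 and 447 bp in HxD, and 888, 800 and 1060 bp in WT. Every KO library was wider than every HxD and WT library, by a narrow margin over HxD replicate 2, and HxD replicates 1 and 3 were the narrowest. Means were 1468 ± 368 bp in KO, 664 ± 455 bp in HxD and 916 ± 132 bp in WT (SD, n = 3 each). Limma gave 552 ± 292 bp for KO minus WT (SE, adjusted p 0.408), 804 ± 292 bp for KO minus HxD (adjusted p 1) and −252 bp for HxD minus WT (adjusted p 0.811). Part of the KO width came from separate short peaks away from the main one. KO replicate 1 had peaks at 1874 to 2369 bp and 3643 to 3958 bp, KO replicate 2 at −4654 to −4185 bp and KO replicate 3 at 3368 to 3863 bp. None of the HxD or WT libraries had a second peak in the window. The KO minus WT difference was 1.67 bp in a window of 2 kb, 156 bp with peaks of −log10 q of at least 5 and −5.33 bp with lists of equal length.

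Kit (chr5:75574987-75656722) encodes the receptor tyrosine kinase for KIT ligand, on which migrating primordial germ cells depend for survival. Its breadth was 2841, 3387 and 4646 bp in KO, 3944, 2696 and 2710 bp in HxD, and 3068, 3615 and 4371 bp in WT. KO replicate 3 and WT replicate 3 were the widest, HxD replicates 2 and 3 the narrowest, and the groups overlapped. Part of this breadth was a separate region inside the gene, at 3242 to 4751 bp, found in 3 WT, 2 KO and 1 HxD libraries. It covered 0, 781 and 1255 bp in KO, 1034, 0 and 0 bp in HxD, and 763, 1012 and 1314 bp in WT. Means were 3625 ± 926 bp in KO, 3117 ± 717 bp in HxD and 3685 ± 654 bp in WT (SD, n = 3 each). Limma gave −60.0 ± 556 bp for KO minus WT (SE, adjusted p 0.974) and −568 bp for HxD minus WT (adjusted p 0.768). A further domain at −6710 to −4924 bp from the Kit start, at the window's edge, was present in all 9 libraries, with 1316, 1746 and 1215 bp in KO, 1694, 1125 and 550 bp in HxD, and 1655, 1428 and 1627 bp in WT.

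The highest fold of any peak in the window is the authors' own value for that peak, a ratio to background, and describes each list by itself. How that background was set is not given in the sources. For Prdm1 it was 15.1, 31.1 and 40.6 in KO, 23.1, 9.86 and 19.1 in HxD, and 7.42, 11.5 and 13.5 in WT. For Prdm14 it was 12.0, 34.8 and 23.8 in KO, 9.83, 18.0 and 12.6 in HxD, and 6.03, 12.0 and 18.6 in WT. For Dppa3 it was 15.7, 28.2 and 21.7 in KO, 12.3, 18.2 and 13.85 in HxD, and 9.47, 12.3 and 4.33 in WT. These values differed among replicates of 1 genotype and were not tested between libraries. For Tfap2c it was 16.5, 16.6 and 8.68 in KO, 21.0, 20.0 and 13.7 in HxD, and 7.53, 15.4 and 21.1 in WT. For Kit it was 22.0, 19.2 and 32.7 in KO, 10.5, 22.1 and 18.5 in HxD, and 12.0, 9.11 and 14.6 in WT. Both genes had a peak in every list. At Kit the highest fold of KO replicate 2 and of WT replicates 1, 2 and 3 came from peaks separate from the one at the marked end. Within 2 kb of that end the highest fold was 12.9 in KO replicate 2 and 10.5, 6.63 and 12.2 in WT. For Dppa4 it was 7.02, 18.8 and 10.2 in KO, 13.4, 8.73 and 8.06 in HxD, and 11.2, 9.11 and 13.8 in WT. For Dppa5a it was 5.19, 6.60 and 9.76 in KO, 5.74, 13.6 and 6.005 in HxD, and 8.64, 11.8 and 10.5 in WT. The broad domains of Tfap2c, Prdm1 and Dppa3 had median percentiles of 78.9, 75.4 and 75.3 for highest fold among the genes tested. Kit and Prdm14 had 72.2 and 69.2, and the narrow domains of Dppa4 and Dppa5a had 47.0 and 22.7. The Kit value is that of WT replicate 1, whose highest fold lay in the separate upstream peak at the window's edge. The broad domains thus ranked higher by breadth than by highest fold. Whether this follows from how the background was set was not tested.

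**Figure D5:**
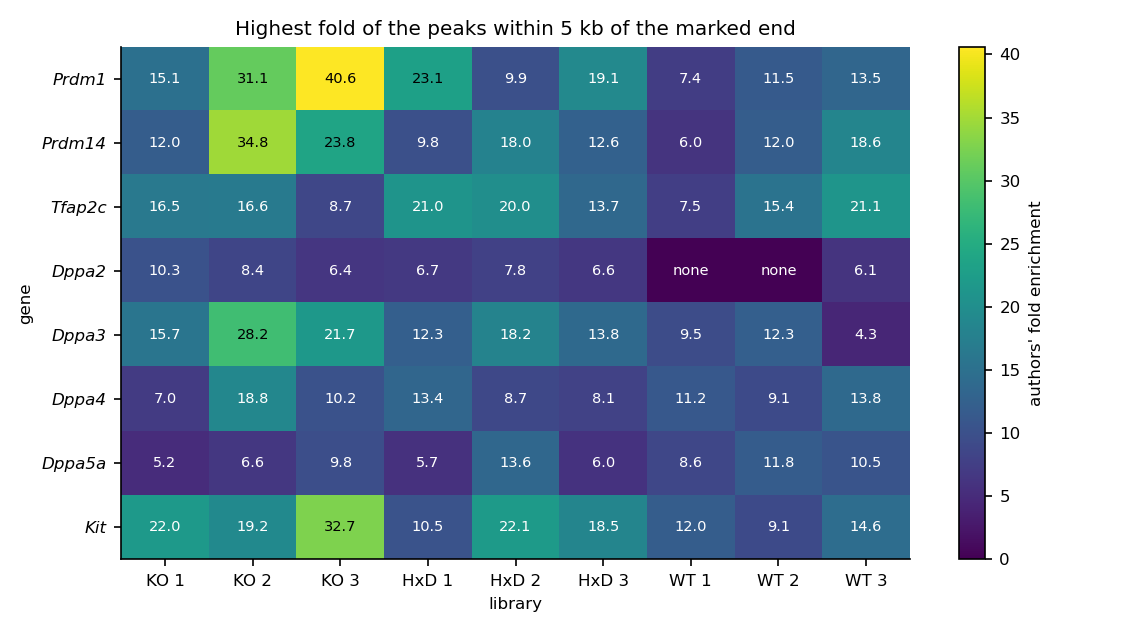
Highest fold of any peak within 5 kb of the marked end of each gene, the authors' ratio to background for that peak. The grid shows genes (rows) by KO, HxD and WT libraries (columns), with the value printed and coloured from dark (low) to yellow (high). Dppa2 has no value in 2 WT libraries, and Prdm1 spreads from 7.42 to 40.6.

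Beyond the windows, inside the genes and up to 20 kb on either side, the peaks of the 9 libraries merged into 72 regions. Of these, 7 were found in all 9 libraries and 38 in 1 library. The 7 lay at Prdm1 (3 regions), Prdm14, Dppa3, Dppa5a and Kit. That of Dppa3 lay at −18591 to −15876 bp and covered 2314, 1120 and 2367 bp in KO, 1509, 1055 and 1011 bp in HxD, and 853, 1542 and 1446 bp in WT. The genotypes overlapped there between KO and WT. In every KO and no WT library there was 1 region, against 0.112% of all 186677 regions. It lay in Prdm1 at chr10:44447446-44448302, inside the gene, and covered 772, 368 and 592 bp in KO and none in any HxD or WT library. A further 2 regions were present throughout WT and absent from HxD, against 3.54% of all regions. The first, at chr6:122640193-122641223 beyond the far end of Dppa3, covered 680, 858 and 0 bp in KO and 757, 889 and 724 bp in WT. The other, at chr9:78357760-78358462 near Dppa5a, covered 0, 0 and 445 bp in KO and 345, 266 and 354 bp in WT. No region was in every HxD and no WT library (0.0354% of all regions) or in every WT and no KO library (3.64%).

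The other genes of the pathway were 27 genes for the inducing signals, their receptors and effectors, pluripotency factors and later germ cell markers. None passed the test in any comparison. In KO against WT, 20 had a broader and 7 a narrower mean, while 53.3% of all genes had a broader one. Their median difference was 449 bp beside 45.0 bp over all genes tested. With no overlap between groups, 6 were broader and 1 narrower, beside 8.49% and 9.08% of all genes. In HxD against WT, 16 had a broader and 11 a narrower mean, while 38.9% of all genes had a broader one. The median was 170 bp beside −125 bp over all genes. With no overlap, 5 were broader and 3 narrower, beside 3.62% and 13.3% of all genes. At an unadjusted p under 0.05 from limma, 7 were broader and 1 narrower in KO against WT, beside 6.76% and 7.45% of all genes. In HxD against WT these were 5 and 1, beside 1.74% and 9.04% of all genes. In KO against HxD, 24 had a broader and 3 a narrower mean, while 71.5% of all genes had a broader one. The median was 247 bp beside 167 bp over all genes. None was free of overlap, beside 7.19% of all genes broader and 0.706% narrower. By unadjusted p under 0.05 from limma, 1 was broader and none narrower, beside 2.69% and 0.219% of all genes.

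Nanog, a core pluripotency factor, had 2320, 3314 and 4652 bp in KO, 3202, 2971 and 2693 bp in HxD, and 1111, 1957 and 1712 bp in WT. All mutant libraries were wider than all WT libraries, with 1835 ± 504 bp for KO minus WT (SE, limma adjusted p 0.146). Bmpr1a, a receptor for the inducing BMP signals, had 2345, 3182 and 4520 bp in KO, 3260, 2563 and 1973 bp in HxD, and 1839, 1661 and 1927 bp in WT. Neither mutant group overlapped WT (limma adjusted p 0.200 for KO and 0.604 for HxD). Nanos3, which protects migrating germ cells from apoptosis, had 914, 1624 and 2502 bp in KO, 1496, 2059 and 1301 bp in HxD, and 0, 597 and 922 bp in WT (limma adjusted p 0.206 for KO and 0.319 for HxD). Ifitm1, a surface protein gene of early germ cells, had 61, 979 and 1698 bp in KO and 1555, 1335 and 310 bp in HxD. It had no peak coverage in the 3 WT libraries (limma adjusted p 0.299 for KO and 0.329 for HxD). Like Dppa2, these 2 genes lacked coverage in 1 or more WT libraries. Ifitm1 entered the test only through its mutant libraries. Nanos3 was marked in 4 of the 9 libraries, with no coverage in WT replicate 1, so it could not have entered through WT alone. Both genes are among those counted above as broader by unadjusted p in both comparisons with WT. Without overlap, Ifitm1 is counted in both comparisons and Nanos3 in HxD against WT. In the other direction, Otx2, a factor whose loss opens germ cell fate in mouse epiblast-like cells, had 3459, 3503 and 3403 bp in HxD and 4774, 4925 and 5275 bp in WT, without overlap (limma adjusted p 0.347). In KO it had 2899, 4667 and 5177 bp and overlapped WT (limma adjusted p 0.579). Elavl2, which encodes an RNA-binding protein, had 1511, 1909 and 2266 bp in KO, 2620, 2351 and 1974 bp in HxD, and 2887, 2427 and 2715 bp in WT (limma adjusted p 0.321 for KO and 0.758 for HxD). T, which encodes the mesoderm factor brachyury, had 2683, 5049 and 4034 bp in KO, 4036, 3225 and 4390 bp in HxD, and 4945, 4620 and 4880 bp in WT (limma adjusted p 0.520 for KO and 0.605 for HxD).

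Dppa2 had the smallest p of the members in KO against WT, and the genes with the most similar breadth over the 9 libraries were Efnb1 on chromosome X (Pearson r = 0.975), Pitpna on chromosome 11 (r = 0.971) and Nedd4 on chromosome 9 (r = 0.958). They are the closest of 15996 genes, and the 9 points share their libraries and genotypes. Efnb1 had 2911, 2452 and 3300 bp in KO, 3432, 2590 and 2558 bp in HxD, and 1171, 1575 and 2262 bp in WT. Unlike Dppa2, it had covered bp in every library.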

How the data were processed

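H3K4me3 CUT&RUN peak lists of 9 libraries (3 KO, 3 HxD, 3 WT) were analysed, without the IgG libraries. MACS2 2.1.0, Bowtie2 2.5.0, Trim Galore, deepTools 3.5.1, SAMtools 1.16.1 and bedtools 2.27.1 were used with build mm10, per the submitters' processing notes. What each did, and with which settings, is not given in the sources. The authors deposited 1 narrow peak list per library, in the MACS2 format, with a fold enrichment per peak as a ratio to background. They also deposited −log10 q values per peak, whose minimum was 2.00 to 2.02 in each list. No counts, and so no depth, were analysed here.

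Gene coordinates came from RefSeq (GRCm38.p6, the assembly of mm10) without strand, and only peaks on autosomes, X and Y entered. The end with more coverage within 1 kb was used, which can be wrong, and genes with a peak there in at least 3 libraries were tested. Breadth was compared over all 9 libraries with limma 3.58.1 (R 4.3.3, eBayes with trend, Benjamini-Hochberg over 15996 genes, threshold 0.05). Nothing in the labels says whether replicates are separate animals, so p-values measure the spread between these samples. The test was checked on simulated data. The rest used pandas 2.3.3, numpy 2.4.6 and matplotlib 3.10.9 in Python 3.11.15. Alternatives varied the q filter, list length, window, gene filter, end, scale, centring and replicates. No 2 lists shared more than 6 identical peaks. The members, lists and tests were chosen with earlier results of these data known. Named beside the members were the 2 pathway genes with the smallest p per direction in each comparison with WT, and the 3 genes most similar to the member with the smallest p.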

Additional observations from a re-analysis of the deposited data

How the results depend on the processing

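Of 414 alternative values for the 24 breadth comparisons of the members, 373 kept the sign and the side of the threshold and 41 changed sign. Some of the 373 could not change sign. The difference in means stays the same with no filter, a fit to the compared libraries alone or the replicate block. It also stays the same without a library of the genotype not compared, so the 373 overstate how stable the signs were. No member passed the threshold under any alternative. The lowest adjusted p over the alternatives was 0.0539, for Dppa2 in HxD minus WT with each library centred. That p ranged from 0.0542 to 0.427 for Dppa2 in KO minus WT, from 0.0539 to 0.507 for Dppa2 in HxD minus WT and from 0.0544 to 0.498 for Dppa3 in KO minus WT.

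Signs turned in KO minus WT for Prdm1 at the RefSeq start (694 bp), Tfap2c in a 2 kb window (54.7 bp), Dppa4 with the stricter q and with lists of equal length (52.7 bp in both), Dppa5a with equal lists (−5.33 bp) and Kit (28.3 bp with the stricter q and with equal lists, 173 bp in a 2 kb window). In HxD minus WT they turned for Prdm1 (70.03 bp with centring, 149 bp at the RefSeq start), Dppa3 (1414 bp with equal lists, 2.69 bp with centring), Dppa4 (250 bp with equal lists) and Kit (117 bp in a 2 kb window). In KO minus HxD they turned for Prdm1 (545 bp at the RefSeq start) and Dppa4 (120.3 bp with the stricter q, 162 bp in a 2 kb window). The cause was not tested. In equal lists the peak was missing at the end of Dppa3 in WT replicate 3, and the inner peak of Dppa3 was missing in WT replicate 1.

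Leaving out 1 library at a time, the ranges that crossed 0 in KO minus WT were −659 to 88.7 bp for Prdm1, −634 to 415 bp for Tfap2c, −629 to 114 bp for Dppa4 and −571 to 332 bp for Kit. In HxD minus WT they were −147 to 21.2 bp for Prdm1, −232.5 to 637 bp for Prdm14, −409 to 282 bp for Dppa3 and −474 to 178 bp for Dppa4. In KO minus HxD they were −583 to 165 bp for Prdm1, −1010 to 39.3 bp for Tfap2c, −272 to 160.2 bp for Dppa2, −478 to 299 bp for Dppa4 and −2.67 to 922 bp for Kit.

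The number of all genes called broader in KO against WT, 0 in the test used, was 363 with equal lists, 183 with centring, 8 with no filter, 1 at the RefSeq start and 0 to 3 without 1 library (3 without KO replicate 1). The number called narrower, 1 in the test used, was 36 with equal lists, 281 with centring, 110 with no filter and 4 at the RefSeq start. It was 0 with the stricter q, a 2 kb window, a fit to the KO and WT libraries alone, a log2 scale or the replicate block, and 0 to 2 without 1 library (2 without HxD replicate 1 and 0 without any other). In HxD against WT, 2 were broader with equal lists, 12 with centring, 2 with no filter and 0 to 3 without 1 library, and 43 were narrower with centring, 100 with no filter and 0 to 22 without 1 library, the 3 and the 22 both without KO replicate 1. A peak at the marked end was present in 24 of 24 gene and library pairs in KO, 24 in HxD and 22 in WT, and in 23, 23 and 20 with equal lists.

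Replicate numbers are shared by the groups and were not used as pairs in the main test. Deviations of same-numbered libraries correlated at −0.236 to 0.0798 over 9 pairs, and others at −0.108 to 0.175. The same-numbered KO and HxD pairs stood at −0.236, −0.187 and −0.184, below all other pairs. These values cannot exclude that samples of the same number were handled together. With the replicate block, the adjusted p was 0.231 for Dppa2 and 0.330 for Dppa3 in KO minus WT and 0.308 for Dppa2 in HxD minus WT, and no member was called.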
